A study of Rattus norvegicus with 12 samples.

Results

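The genes described here are 7 that have been widely reported as targets of the microRNA miR-221-3p: Cdkn1b, Cdkn1c, Ets1, Foxo3, Angptl2, Kit and Bbc3. They were chosen by name, with earlier results of these data known, and 6 of the 7 had a row among the 21071 genes of the deposited table and were among the 15650 genes with enough counts to be tested. In the table Cdkn1b lies on chromosome 4, Cdkn1c on 1, Ets1 on 8, Foxo3 on 20, Angptl2 on 3 and Kit on 14. Bbc3, which encodes the pro-apoptotic protein PUMA, was not analysed here. The RNA came from nucleus pulposus cells of the rat, which fill the soft centre of each disc between vertebrae, in 4 groups of 3 libraries. The groups were erastin with miR-Exo, erastin with NPPC-Exo, miR-Exo alone and NPPC-Exo alone. NPPC-Exo are exosomes, small vesicles released by cells, from nucleus pulposus progenitor cells, and miR-Exo are such exosomes with miR-221-3p overexpressed. Erastin blocks cystine import and thereby starts ferroptosis, an iron-dependent form of cell death. The labels give 0.1 to 5 µM for 48 h, with no dose for a single library, and 50 µg/mL for NPPC-Exo. Every group received exosomes, so all differences below are between kinds of exosome or between erastin and none, not against cells without exosomes. The labels name no strain, sex or age of the animals and do not state what separates the libraries of a group (dishes, passages or animals). The p-values therefore measure the spread between libraries, which may be technical.

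A mature miRNA is a short RNA that guides an Argonaute protein to messenger RNAs, mainly through pairing of its seed, bases 2 to 8, with sites in the 3′ untranslated region. Pairing of this kind usually lowers the stability and translation of the message. miR-221-3p and its neighbour miR-222-3p are known above all for acting on the cell cycle inhibitors encoded by Cdkn1b and Cdkn1c, and on Kit. A reported target is a gene for which such an effect was described in some cell type, often human, and need not respond in disc cells.

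The mature sequences are shown because the genes of the set were reported as targets, and a miRNA finds targets mainly through its seed. Sites for the seed in these rat genes were not searched. Both are printed 5′ to 3′ with the seed in capitals, from RefSeq on the GRCr8 assembly, where miR-221-3p lies at chrX:6023246-6023268 and miR-222-3p at chrX:6022682-6022702, both on the plus strand.
rno-miR-221-3p: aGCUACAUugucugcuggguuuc
rno-miR-222-3p: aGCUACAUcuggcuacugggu
The first 8 bases of the pair are the same, and the sequences part after them. Of 724 mature rat miRNAs in the RefSeq table, 2 carried this seed, which are the ones printed.

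The hairpins are shown because the deposited counts belong to the hairpin genes Mir221 and Mir222, not to the mature forms. Capitals mark the mature arm, and the hairpins lie at chrX:6023182-6023290 and chrX:6022621-6022723 on the same assembly and strand.
Mir221 hairpin: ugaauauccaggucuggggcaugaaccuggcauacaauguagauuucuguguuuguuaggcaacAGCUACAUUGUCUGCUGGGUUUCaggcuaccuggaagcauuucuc
Mir222 hairpin: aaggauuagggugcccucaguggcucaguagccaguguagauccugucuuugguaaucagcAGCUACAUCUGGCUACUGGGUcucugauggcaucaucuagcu
Mir221 had 1651, 1629 and 1578 counts in the libraries with erastin and miR-Exo, against 24, 21 and 22 with erastin and NPPC-Exo. Without erastin it had 1686, 1524 and 1752 counts with miR-Exo, against 17 in each of the 3 NPPC-Exo libraries. The 6 miR-Exo libraries thus stood far above the 6 NPPC-Exo libraries, as the labels say, with or without erastin. Mir222, which carries the same seed, summed to 4 counts with erastin and miR-Exo, 3 with erastin and NPPC-Exo, 6 with miR-Exo and 8 with NPPC-Exo, too few to test. Library totals ran from 54616827 to 68865720 counts, and mature miR-221-3p has no count of its own in the table.

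**Figure D1:**
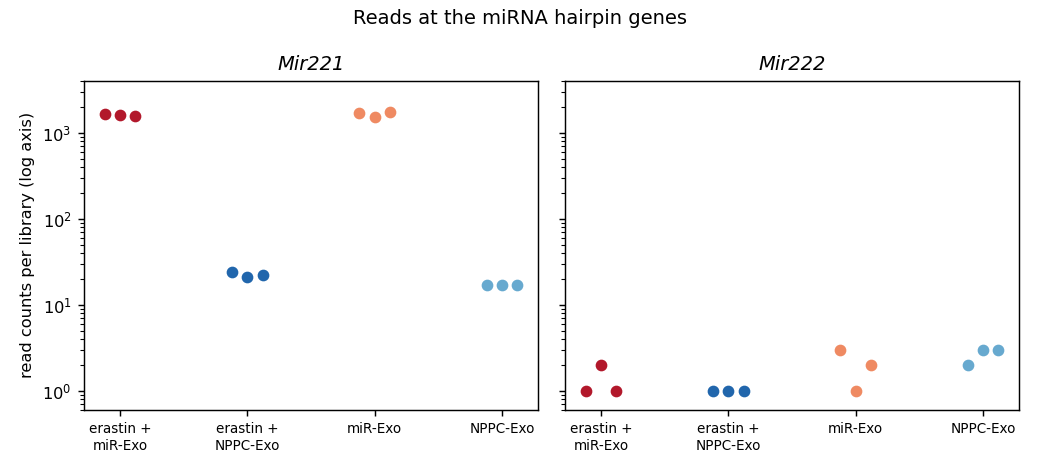
Read counts per library at the Mir221 gene (left) and the Mir222 gene (right) in the 4 groups, on a log axis, 1 point per library. Mir221 lies between 1524 and 1752 counts in the miR-Exo libraries and between 17 and 24 in the NPPC-Exo libraries, while Mir222 has at most 3 counts in any library.

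The first principal component held 74.1% of the variance between libraries and separated those with erastin from those without. Aggrecan (Acan), the main proteoglycan of the disc, averaged 773 counts per 1000000 (CPM) with erastin and miR-Exo, 912 with erastin and NPPC-Exo, 6570 with miR-Exo and 6390 with NPPC-Exo. The keratins of notochord-derived disc cells were low, with Krt8 at 2.85 to 5.09 CPM and Krt18 at 0 to 0.12 CPM in the group means. Summed over 12 of 16 nucleus pulposus markers, mostly Acan, the level was 1200 to 1270 CPM with erastin and miR-Exo, 1400 to 1530 with erastin and NPPC-Exo, 7410 to 8880 with miR-Exo and 7380 to 8430 with NPPC-Exo. Over 6 of 7 annulus and tendon fibroblast markers, led by Col1a1, it was 6270 to 8740 CPM with erastin and miR-Exo, 11900 to 14800 with erastin and NPPC-Exo, 26900 to 36000 with miR-Exo and 24400 to 33500 with NPPC-Exo. Over 5 of 7 endothelial markers, mostly Esam without erastin, it was 4.98 to 5.6 CPM with erastin and miR-Exo, 5.68 to 6.42 with erastin and NPPC-Exo, 124 to 130 with miR-Exo and 110 to 129 with NPPC-Exo. Over 6 of 8 leukocyte markers, mostly Cd14, it was 22.2 to 29.5 CPM with erastin and miR-Exo, 13.0 to 17.3 with erastin and NPPC-Exo, 9.91 to 11.4 with miR-Exo and 7.3 to 9.28 with NPPC-Exo. The 2 erythroid markers in the table did not pass 0.357 CPM in any library. The marker levels differed most between erastin and none, and some also differed between the kinds of exosome. Under erastin Col2a1, the disc and cartilage collagen gene, averaged 67.9 CPM with miR-Exo and 227 CPM with NPPC-Exo, Sox9, an activator of that gene, 5.67 CPM with miR-Exo and 12.8 CPM with NPPC-Exo, and Col1a1 7330 CPM with miR-Exo and 13200 CPM with NPPC-Exo. Pax1, Foxf1, Ca3, Scx, Mkx and Thbs4 were also lower with miR-Exo there. Other markers were higher with miR-Exo, among them Hif1a (236 CPM against 164), Cd24 (21.3 against 15.9) and the fibroblast marker Fmod (134 against 129). The part of these levels in the differences given below, with erastin or between exosomes, was not tested. In RNA from whole cultures, fewer cells of a type and less RNA per cell cannot be told apart. Within groups, the main component of the spread between libraries took 31% of it and weighed most on NPPC-Exo replicate 1 and miR-Exo replicate 1. Results without these libraries are given for the set as a whole and beside the genes whose values moved most.

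The set moved in both directions between the kinds of exosome. With erastin, 4 of the 6 tested genes fell with miR-Exo (Cdkn1b, Ets1, Angptl2 and Foxo3), 1 rose (Cdkn1c) and 1 did not pass the test (Kit). A gene is called where its p from edgeR's quasi-likelihood test, adjusted by Benjamini-Hochberg over all genes of the comparison, was under 0.05. Among all genes tested, 15.8% fell, 15.6% rose and 31.3% were called in either direction. Without erastin, 3 of 6 fell with miR-Exo (Cdkn1b, Ets1 and Angptl2), Cdkn1c again rose, and Foxo3 and Kit did not pass, where 6.52% of all genes fell, 4.15% rose and 10.7% were called. The median log2 fold change of the 6 was -0.46 with erastin, against 0.01 over all genes, and -0.4 without erastin, against 0.0. Among the 4 that fell with erastin, the call of Foxo3 (edgeR adjusted p = 0.0441) was lost under 14 of 24 other settings. Without NPPC-Exo replicate 1 and miR-Exo replicate 1, the counts that rose and fell were the same in both comparisons. The median was then -0.47 with erastin and -0.24 without. The 2 comparisons share no library.

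**Figure D2:**
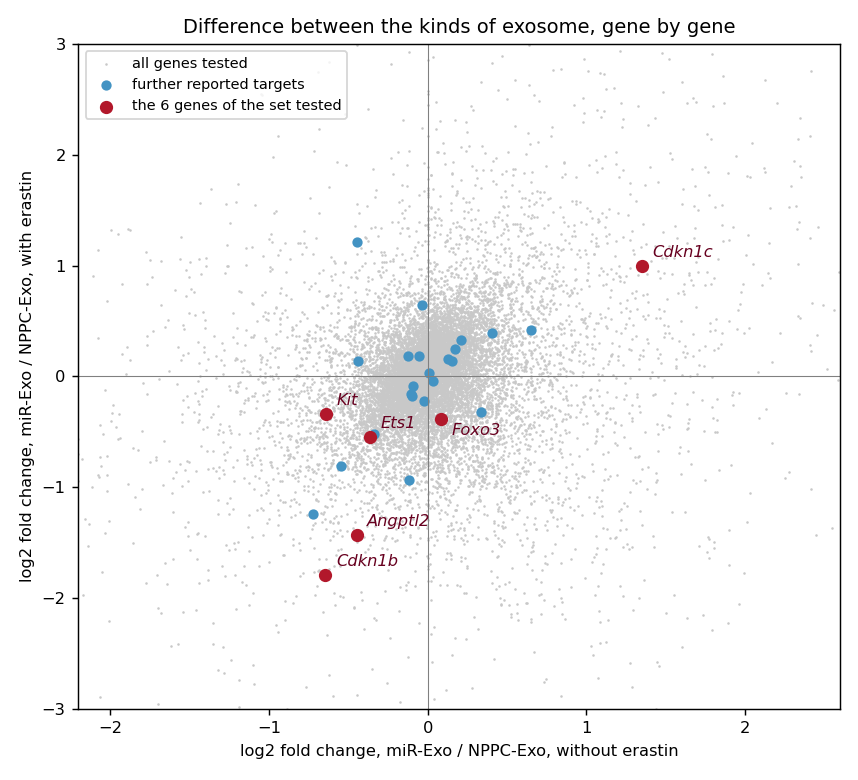
Log2 fold change of miR-Exo over NPPC-Exo without erastin (horizontal) and with erastin (vertical) for each gene tested (grey), for 22 further reported targets (blue) and for the 6 genes of the set (red); 506 genes lie outside the plotted range. Cdkn1b, Angptl2 and Ets1 lie below 0 on both axes and Cdkn1c lies above 0 on both. Foxo3 did not pass the test without erastin, and Kit did not pass it with or without erastin.

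Cdkn1b encodes p27Kip1, an inhibitor of cyclin-dependent kinases that holds cells before DNA synthesis. It had 16.1, 13.7 and 14.1 CPM with erastin and miR-Exo, against 46.1, 54.5 and 51.3 CPM with erastin and NPPC-Exo. Without erastin it had 27.5, 23.8 and 25.0 CPM with miR-Exo, against 50.3, 34.4 and 34.7 CPM with NPPC-Exo. In both settings every miR-Exo library was below every NPPC-Exo library, and NPPC-Exo replicate 1 was the high one of its group.

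The level of Cdkn1b was 3.46-fold lower with miR-Exo under erastin (log2 fold change -1.79 ± 0.14 SE, edgeR adjusted p = 1.26e-06). Without erastin it was 1.56-fold lower (-0.64 ± 0.13 SE, edgeR adjusted p = 0.00868), at -0.44 without NPPC-Exo replicate 1 (adjusted p = 0.0138) and -0.50 without replicate 1 of both groups (adjusted p = 0.0136). Under erastin the marker sums of nucleus pulposus and fibroblasts, led by Acan and Col1a1, were also lower with miR-Exo. Some single markers were higher, as given above, and the part of these levels in the fall was not tested. Of all genes tested, 98.2% had a higher log2 fold change than Cdkn1b under erastin and 93.7% without it. The fall was larger under erastin by 1.15 on the log2 scale (interaction -1.15 ± 0.19 SE, edgeR adjusted p = 0.00277). Seen the other way, the response of Cdkn1b to erastin was -0.80 ± 0.14 with miR-Exo (edgeR adjusted p = 0.000295) and 0.35 ± 0.13 with NPPC-Exo (edgeR adjusted p = 0.04998). The fall with erastin under miR-Exo had groups that did not overlap. The rise under NPPC-Exo had groups that did overlap, lay at the threshold, and was not called under 12 of the 24 other settings, with 0.25 (adjusted p = 0.192) without NPPC-Exo replicate 2 and 0.26 (adjusted p = 0.185) without NPPC-Exo replicate 3. The interaction was called under all 23 other settings that could be run for it, between -1.35 and -1.05.

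Cdkn1c encodes p57Kip2, the closest relative of p27Kip1 among the inhibitors of cyclin-dependent kinases and the product of an imprinted gene. Unlike Cdkn1b it was higher with miR-Exo. It had 3.35, 4.08 and 3.78 CPM with erastin and miR-Exo, against 1.71, 2.06 and 1.84 CPM with erastin and NPPC-Exo. Without erastin the values were 1.73, 1.83 and 1.72 CPM with miR-Exo, against 1.05, 0.433 and 0.579 CPM with NPPC-Exo. Every miR-Exo library was above every NPPC-Exo library of the same setting, and NPPC-Exo replicate 1 was again the high one of its group.

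With miR-Exo Cdkn1c rose by a log2 fold change of 1.00 ± 0.26 SE under erastin (edgeR adjusted p = 0.0102) and 1.35 ± 0.28 SE without it (2.55-fold, edgeR adjusted p = 0.00778). In the 6 libraries without erastin fitted alone, the value was 1.36 with an adjusted p of 0.0652. It was 1.79 without NPPC-Exo replicate 1 (adjusted p = 0.0007) and 1.81 without replicate 1 of both groups (adjusted p = 0.00212). Erastin raised Cdkn1c under miR-Exo (1.09 ± 0.26 SE, edgeR adjusted p = 0.00345) and under NPPC-Exo (1.44 ± 0.28 SE, edgeR adjusted p = 0.000804), with no overlap in either case. The interaction did not pass the test (-0.35 ± 0.37 SE, edgeR adjusted p = 0.603). Per length, Cdkn1c was a low gene throughout, at 1.99 ± 0.196 FPKM (fragments scaled to gene length and library size) with erastin and miR-Exo, 0.927 ± 0.0961 with erastin and NPPC-Exo, 0.767 ± 0.0462 with miR-Exo and 0.277 ± 0.129 with NPPC-Exo (SD, n = 3 each). Cdkn1b had 9.12 ± 0.821 FPKM with erastin and miR-Exo, 29.5 ± 2.78 with erastin and NPPC-Exo, 12.9 ± 0.731 with miR-Exo and 19.1 ± 4.30 with NPPC-Exo (SD, n = 3 each). Cdkn1b was thus above Cdkn1c in each group of libraries, and nearest to it with erastin and miR-Exo.

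**Figure D3:**
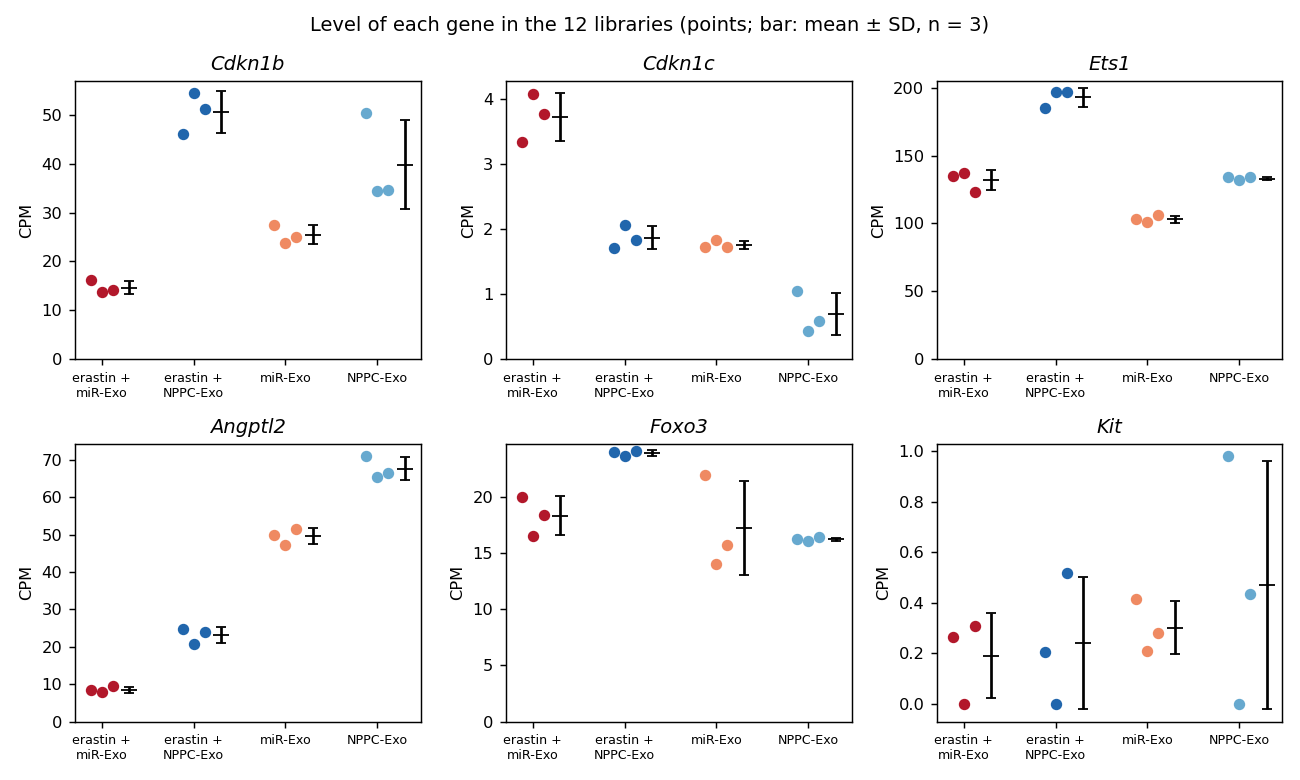
Level in CPM of the 6 genes in each of the 12 libraries (points) with the mean ± SD of each group (bars, n = 3), each panel with its own linear axis. Cdkn1b and Angptl2 are lowest with erastin and miR-Exo, Cdkn1c is highest there, Ets1 is highest with erastin and NPPC-Exo, and Kit has a library at 0 in 3 of the 4 groups.

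Other genes of the G1 phase were read from a list of 20 inhibitors, cyclins, kinases and turnover factors, of which 18 were tested. With erastin, 4 of the 18 rose and 5 fell with miR-Exo, where 15.6% of all genes rose and 15.8% fell, and the list median was -0.16. Cdk2, the kinase that p27Kip1 inhibits together with cyclin E, rose by 0.67 ± 0.07 (edgeR adjusted p = 1.3e-05) and Ccne1, a cyclin E gene, by 0.55 ± 0.07 (edgeR adjusted p = 8.93e-05). Cdk6, a kinase of the D cyclins, fell by 0.93 on the log2 scale (-0.93 ± 0.09, edgeR adjusted p = 8.08e-06), and Ccnd1 fell by 0.92 (-0.92 ± 0.06, edgeR adjusted p = 4.8e-07). Without erastin 2 of the 18 were called with miR-Exo and both fell, the cyclin genes Ccnd1 (-0.47 ± 0.06) and Ccne2 (-0.34 ± 0.08), with a median of -0.07. Of all genes, 10.7% were called there and 6.52% fell.

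In response to erastin 11 of the 18 rose and 5 fell with miR-Exo (median 0.47, all genes 0.03), where 24.7% of all genes rose and 24.4% fell. With NPPC-Exo 12 rose and 2 fell (median 0.78, all genes 0.02), where 21.5% of all genes rose and 22.1% fell. Cdk2 averaged 81.8 ± 2.77 CPM with erastin and miR-Exo, 51.4 ± 0.349 with erastin and NPPC-Exo, 27.3 ± 2.77 with miR-Exo and 25.8 ± 0.223 with NPPC-Exo (SD, n = 3 each). Its response to erastin was larger with miR-Exo, by 0.59 ± 0.10 (edgeR adjusted p = 0.00264), as were those of Ccne1 (0.68 ± 0.10, edgeR adjusted p = 0.00156) and Ccne2 (0.68 ± 0.11, edgeR adjusted p = 0.00194). The response of Cdk6 was lower with miR-Exo (-0.78 ± 0.13, edgeR adjusted p = 0.00235). In the interaction 3 of the 18 were called higher and 4 lower, where 5.81% and 7.01% of all genes were. Cdkn1a, the third gene of the Cip/Kip family, had an interaction of -1.23 ± 0.40 that did not pass the test (edgeR adjusted p = 0.0611). Cdkn1a is named here, outside the rule for naming genes, to complete that family.

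**Figure D4:**
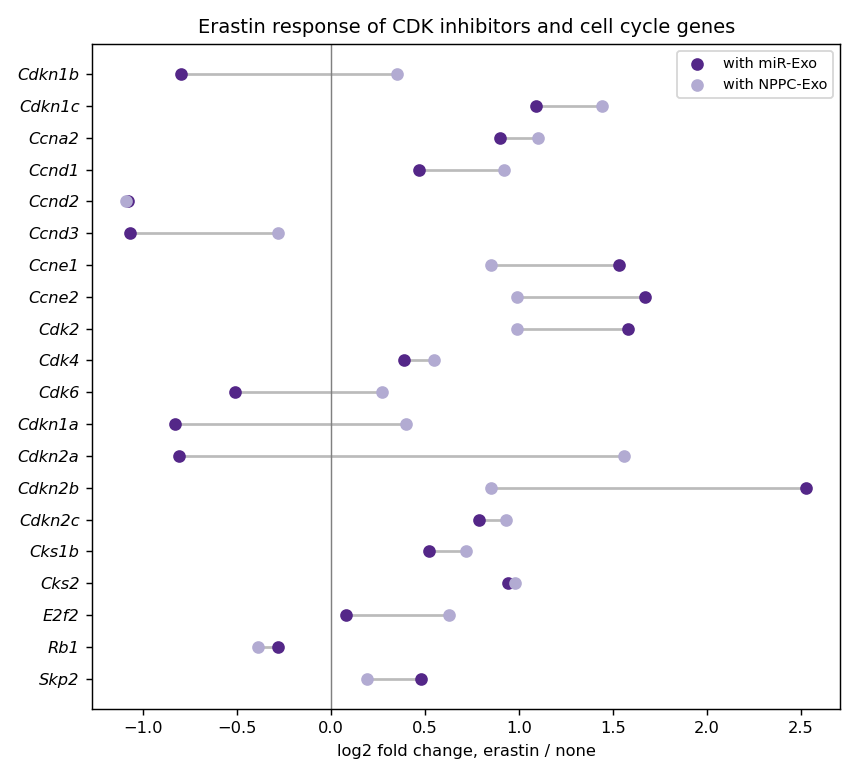
Log2 fold change of erastin over none for Cdkn1b, Cdkn1c and the 18 tested genes of the cell cycle list, with miR-Exo (dark) and with NPPC-Exo (light); a line joins the values of a gene. Cdkn1b lies at -0.80 with miR-Exo and 0.35 with NPPC-Exo, while Cdkn1c lies to the right of 0 under both kinds of exosome.

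Ets1 encodes a transcription factor of the ETS family, active in growth, migration and matrix turnover. It had 135, 137 and 123 CPM with erastin and miR-Exo, against 185, 197 and 197 CPM with erastin and NPPC-Exo. Without erastin it had 103, 101 and 106 CPM with miR-Exo, against 134, 132 and 134 CPM with NPPC-Exo. The miR-Exo libraries lay below the NPPC-Exo libraries in both settings, and replicates were close.

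Ets1 fell with miR-Exo by a log2 fold change of -0.55 ± 0.05 SE under erastin (edgeR adjusted p = 5.89e-06) and -0.36 ± 0.05 SE without it (edgeR adjusted p = 0.000694). It rose with erastin under miR-Exo (0.35 ± 0.05 SE, edgeR adjusted p = 7.81e-05) and under NPPC-Exo (0.54 ± 0.05 SE, edgeR adjusted p = 1.58e-06). The interaction was -0.19 ± 0.07 SE and did not pass the test (edgeR adjusted p = 0.11). In order of level, erastin with NPPC-Exo stood highest and miR-Exo alone lowest, and the range with erastin and miR-Exo held that of NPPC-Exo alone.

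Of 16 other ETS factors tested, 1 rose under erastin with miR-Exo (Elk1, 0.37 ± 0.08) and 6 fell, with a median of -0.21, among them Etv5 at -0.66 ± 0.07, Etv4 at -0.77 ± 0.14 and Etv6 at -0.44 ± 0.09. In that comparison 15.6% of all genes rose and 15.8% fell. Without erastin 4 of the 16 were called with miR-Exo and all 4 fell, with a median of -0.18, where 6.52% of all genes fell. Etv5 averaged 32.8 ± 2.48 CPM with miR-Exo and 60.4 ± 0.99 CPM with NPPC-Exo (SD, n = 3 each), a log2 fold change of -0.88 ± 0.07 (edgeR adjusted p = 7.78e-06). Etv4 fell by 1.12 on the log2 scale, Elk4 by 0.32 and Elk3 by 0.29. Etv4 and Etv5 are ETS genes that respond to fibroblast growth factor and ERK signalling, and Elk3 and Elk4 encode ternary complex factors. In response to erastin 9 of the 16 rose and 4 fell under either kind of exosome. The median was 0.34 with miR-Exo (all genes 0.03) and 0.29 with NPPC-Exo (all genes 0.02). Over all genes 24.7% rose and 24.4% fell with miR-Exo, and 21.5% rose and 22.1% fell with NPPC-Exo. Erg, an ETS gene of endothelium and cartilage, fell by 3.83 on the log2 scale with miR-Exo and 3.18 with NPPC-Exo.

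Foxo3 encodes a forkhead transcription factor that AKT keeps out of the nucleus and that controls stress, survival and atrophy genes. Its values were 20, 16.5 and 18.4 CPM with erastin and miR-Exo, against 24.0, 23.6 and 24.1 CPM with erastin and NPPC-Exo. Without erastin they were 21.9, 14.0 and 15.7 CPM with miR-Exo, against 16.2, 16.1 and 16.4 CPM with NPPC-Exo. The groups overlapped without erastin, where miR-Exo replicate 1 was the highest library, and did not overlap with it.

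With erastin Foxo3 fell with miR-Exo by a log2 fold change of -0.38 ± 0.13 SE (edgeR adjusted p = 0.0441), a call that was lost under 14 of 24 other settings, with adjusted p from 0.00467 to 0.135. Without erastin the difference was 0.08 ± 0.14 SE (edgeR adjusted p = 0.759, 95% interval -0.18 to 0.35), and -0.13 without miR-Exo replicate 1. Erastin raised Foxo3 under NPPC-Exo (0.56 ± 0.13 SE, edgeR adjusted p = 0.00414). Under miR-Exo the value was 0.09 ± 0.13 SE (edgeR adjusted p = 0.609), 0.30 without miR-Exo replicate 1 (adjusted p = 0.0228) and -0.04 without miR-Exo replicate 2. The interaction did not pass the test (-0.47 ± 0.19 SE, edgeR adjusted p = 0.128), though it did without miR-Exo replicate 2 (-0.60, adjusted p = 0.0485).

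Among 25 tested genes that act above, beside or below FOXO factors, 9 rose and 2 fell with miR-Exo under erastin (median 0.12). The shares of all genes in that comparison were 15.6% higher and 15.8% lower. Sod2, the mitochondrial superoxide dismutase, averaged 344 ± 5.11 CPM with miR-Exo and 108 ± 23.1 CPM with NPPC-Exo there (SD, n = 3 each), a log2 fold change of 1.67 ± 0.13 (edgeR adjusted p = 1.2e-06), and Cat, catalase, rose by 0.44 ± 0.06. Without erastin 6 rose and 1 fell with miR-Exo, where 4.15% of all genes rose and 6.52% fell, with a median of 0.07. The gene that fell was Bnip3 (-0.53 ± 0.06, edgeR adjusted p = 0.000112). Gadd45a, a growth arrest and DNA damage gene, averaged 37.1 ± 3.06 CPM with miR-Exo and 17.4 ± 0.768 CPM with NPPC-Exo (SD, n = 3 each), a log2 fold change of 1.09 ± 0.08 (edgeR adjusted p = 5.43e-06). Fbxo32, which encodes the atrophy ubiquitin ligase atrogin, rose by 0.84 ± 0.13 with erastin and 0.64 ± 0.13 without it. In response to erastin 8 rose and 7 fell under either kind of exosome, with medians of -0.01 with miR-Exo and -0.03 with NPPC-Exo. Over all genes 24.7% rose and 24.4% fell with miR-Exo, and 21.5% rose and 22.1% fell with NPPC-Exo.

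Angptl2 encodes a secreted angiopoietin-like glycoprotein that signals through integrins and is linked to inflammation of connective tissue. It had 8.47, 7.81 and 9.43 CPM with erastin and miR-Exo, against 24.9, 20.7 and 23.9 CPM with erastin and NPPC-Exo. Without erastin it had 49.9, 47.3 and 51.6 CPM with miR-Exo, against 71.1, 65.4 and 66.4 CPM with NPPC-Exo. No pair of the 4 groups overlapped, and the order from low to high was erastin with miR-Exo, erastin with NPPC-Exo, miR-Exo and NPPC-Exo.

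Under erastin Angptl2 was 2.70-fold lower with miR-Exo (log2 fold change -1.44 ± 0.09 SE, edgeR adjusted p = 2.28e-07), and 97.0% of all genes had a higher log2 fold change. Without erastin the log2 fold change was -0.45 ± 0.08 SE (edgeR adjusted p = 0.0046). Erastin lowered it 5.79-fold with miR-Exo (-2.53 ± 0.09 SE, edgeR adjusted p = 1.09e-10) and less with NPPC-Exo (-1.55 ± 0.09 SE, edgeR adjusted p = 8.67e-09). The difference between these responses was -0.99 ± 0.12 SE (edgeR adjusted p = 0.000594). The summed nucleus pulposus and fibroblast markers, led by Acan and Col1a1, were also lower with erastin than without. Under erastin these sums were lower with miR-Exo than with NPPC-Exo, though some single markers were higher, as given above. The part of these levels in the falls was not tested. Angptl2 had the highest level per length of the set without erastin, at 20.7 ± 0.635 FPKM with miR-Exo and 26.8 ± 1.10 FPKM with NPPC-Exo (SD, n = 3 each). With erastin that place was taken by Ets1, at 28.6 ± 1.73 FPKM with miR-Exo and 39.1 ± 1.71 FPKM with NPPC-Exo (SD, n = 3 each).

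Of 9 tested angiopoietins, angiopoietin-like genes and receptors, 3 rose and 2 fell with miR-Exo under erastin (median 0.1), where 15.6% of all genes rose and 15.8% fell. Without erastin 2 were called and both fell (median -0.16), where 6.52% of all genes fell. These were the integrin genes Itgb1 and Itga5, whose products pair as a fibronectin receptor. Angptl4, a lipase inhibitor of the same family as Angptl2, averaged 168 ± 3.50 CPM with erastin and miR-Exo, 103 ± 11.1 with erastin and NPPC-Exo, 4.32 ± 0.395 with miR-Exo and 3.86 ± 0.496 with NPPC-Exo (SD, n = 3 each). It rose with erastin by 5.28 ± 0.11 with miR-Exo and 4.74 ± 0.11 with NPPC-Exo on the log2 scale, where Angptl2 fell, and with miR-Exo under erastin by 0.71 ± 0.09 (edgeR adjusted p = 7.2e-05). Angpt1, the ligand that activates the TEK receptor, rose with miR-Exo under erastin by 0.98 ± 0.18 (edgeR adjusted p = 0.00092). In response to erastin, 4 of the 9 rose and 2 fell with miR-Exo, where 24.7% of all genes rose and 24.4% fell. With NPPC-Exo 4 rose and 3 fell, where 21.5% of all genes rose and 22.1% fell.

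Kit encodes the receptor for stem cell factor, best known in mast cells, melanocytes and blood progenitors. It had 18, 0 and 20 counts with erastin and miR-Exo, against 12, 0 and 35 counts with erastin and NPPC-Exo. Without erastin it had 24, 12 and 18 counts with miR-Exo, against 55, 0 and 24 counts with NPPC-Exo. The groups overlapped in each comparison, and a count of 0 allows up to 0.044 to 0.0565 CPM, depending on the library, by counting error alone.

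The log2 fold change of Kit with miR-Exo was -0.34 ± 1.43 SE under erastin (edgeR adjusted p = 0.889) and -0.64 ± 1.40 SE without it (edgeR adjusted p = 0.83), with a 95% interval from -3.39 to 2.11 for the value without erastin. The interval held both falls and rises, so the direction of any difference could not be told. The mast cell markers summed to 0.279 to 0.54 CPM with erastin and miR-Exo, 0.594 to 0.847 with erastin and NPPC-Exo, 0 to 0.207 with miR-Exo and 0 to 0.0713 with NPPC-Exo, over 3 of 9 markers in the table. The mast cell protease gene Tpsb2 was at 0 counts in all groups but NPPC-Exo. Over 3 of 6 melanocyte markers the sums, nearly all of it Pmel, were 11.8 to 15.1 CPM with erastin and miR-Exo, 6.58 to 8.6 with erastin and NPPC-Exo, 5.16 to 6.8 with miR-Exo and 2.66 to 3.19 with NPPC-Exo, and Mlana was at 0 counts in all groups but miR-Exo.

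Genes around the receptor had more counts. Kitlg, which encodes stem cell factor, averaged 138 ± 10.4 CPM with erastin and miR-Exo, 77.7 ± 6.42 with erastin and NPPC-Exo, 36.2 ± 2.17 with miR-Exo and 36.6 ± 2.55 with NPPC-Exo (SD, n = 3 each). It rose with miR-Exo under erastin by 0.83 ± 0.08 (edgeR adjusted p = 7.25e-06) and was at -0.02 ± 0.08 without erastin (edgeR adjusted p = 0.938). Erastin raised it by 1.93 ± 0.08 with miR-Exo and 1.09 ± 0.08 with NPPC-Exo, an interaction of 0.85 ± 0.11 (edgeR adjusted p = 0.000843). Of the 14 tested genes of KIT signalling and its relatives, 5 rose and 1 fell with miR-Exo under erastin (median 0.17), and 1 rose and 1 fell without it (median -0.01). The shares of all genes were 15.6% higher and 15.8% lower with erastin, and 4.15% and 6.52% without it. With erastin 6 rose and 2 fell under miR-Exo, where 24.7% of all genes rose and 24.4% fell. Under NPPC-Exo 4 rose and 2 fell with erastin, where 21.5% of all genes rose and 22.1% fell. Of the sister receptor genes, Pdgfra rose with erastin by 1.06 ± 0.08 under miR-Exo and 0.33 ± 0.08 under NPPC-Exo. Pdgfrb instead fell with erastin, at -0.95 ± 0.04 under miR-Exo and -0.83 ± 0.04 under NPPC-Exo.

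In the response to erastin as a whole, 2 of the 6 genes rose and 2 fell under miR-Exo. Over all genes 24.7% rose, 24.4% fell and 49.1% were called. The median of the 6 was -0.28 against 0.03 over all genes. That median lies between Foxo3 at 0.09 and Kit at -0.65 ± 1.43 SE, so its sign depends on Kit, a gene of few counts. Under NPPC-Exo 4 rose and 1 fell, with a median of 0.44 against 0.02, where 21.5% rose, 22.1% fell and 43.6% were called. Without NPPC-Exo replicate 1 and miR-Exo replicate 1, Foxo3 joined those that rose under miR-Exo, which were then 3, with a median of -0.03. In the interaction 2 of the 6 were called, Cdkn1b and Angptl2, both lower, with a median of -0.41 against 0.03 over all genes, where 5.81% were called higher, 7.01% lower and 12.8% in either direction. The median of the interaction was -0.66 without those libraries. The comparisons of erastin share libraries with those of the exosomes, so their values for a gene are not separate measurements.

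**Figure D5:**
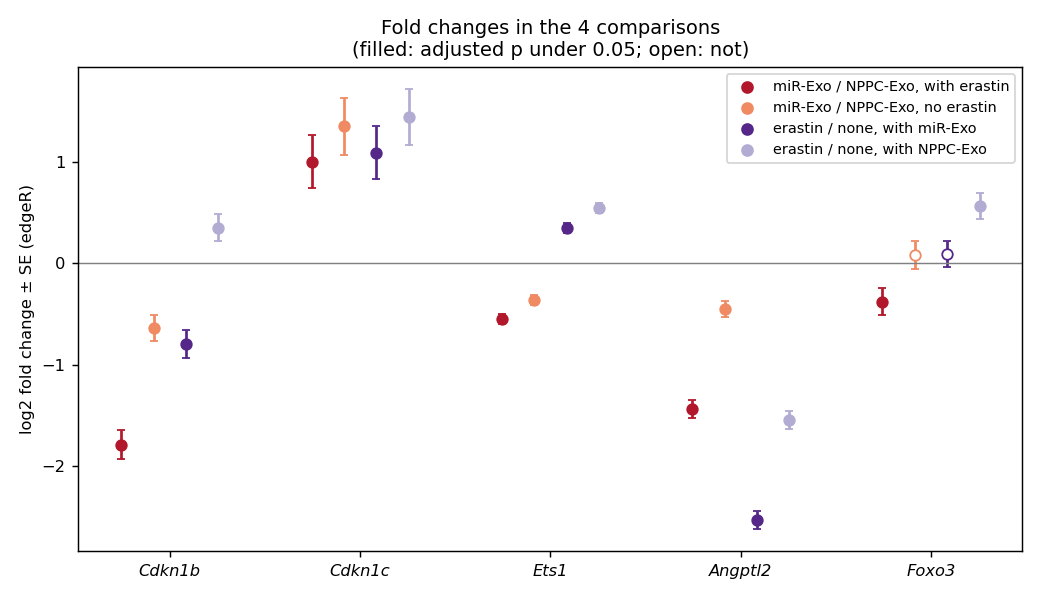
Log2 fold change ± SE from edgeR for 5 of the 6 genes in the 4 comparisons, filled where the adjusted p was under 0.05; Kit, with standard errors of 1.40 to 1.43, is left out. Cdkn1b, Ets1 and Angptl2 lie below 0 for miR-Exo over NPPC-Exo with and without erastin, and Cdkn1c lies above 0 in all 4 comparisons.

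A further 24 genes reported as targets of miR-221-3p were read beside the set, of which 22 were tested. With erastin 6 rose and 6 fell with miR-Exo, where 15.6% of all genes rose and 15.8% fell. The median was 0.08 against 0.01 over all genes. Without erastin 1 rose and 4 fell, where 4.15% of all genes rose and 6.52% fell, with a median of -0.04 against 0.0. Adipor1, an adiponectin receptor, averaged 58.1 ± 1.77 CPM with erastin and miR-Exo, 138 ± 4.41 with erastin and NPPC-Exo, 130 ± 4.53 with miR-Exo and 214 ± 11.7 with NPPC-Exo (SD, n = 3 each). It fell with miR-Exo by 1.25 on the log2 scale under erastin (-1.25 ± 0.05, edgeR adjusted p = 1.64e-08) and 0.72 without it (-0.72 ± 0.05, edgeR adjusted p = 5.43e-06). Arf4, a small GTPase of the secretory pathway, was at 300 ± 2.96 CPM with erastin and miR-Exo, 525 ± 11.3 with erastin and NPPC-Exo, 430 ± 2.35 with miR-Exo and 628 ± 32.5 with NPPC-Exo (SD, n = 3 each), and fell by 0.81 with erastin and 0.55 without. Timp2, an inhibitor of metalloproteinases, fell by 0.52 with erastin and 0.34 without, while its relative Timp3 was at -0.94 ± 0.14 with erastin (edgeR adjusted p = 0.000211) and -0.12 ± 0.12 without (edgeR adjusted p = 0.587). Icam1, an adhesion molecule of inflamed cells, rose by 0.40 ± 0.09 with erastin and 0.41 ± 0.09 without. Bcl2l11, which encodes the BH3-only protein BIM, was at 0.14 ± 0.12 with erastin (edgeR adjusted p = 0.424) and fell by 0.44 on the log2 scale without it (edgeR adjusted p = 0.0378). In response to erastin 6 of the 22 rose and 8 fell with miR-Exo, where 24.7% of all genes rose and 24.4% fell. With NPPC-Exo 8 rose and 10 fell, where 21.5% of all genes rose and 22.1% fell.

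The BCL2 family, to which Bbc3 belongs, was represented by 13 tested genes. Under erastin 4 rose and 3 fell with miR-Exo (median 0.02), where 15.6% of all genes rose and 15.8% fell. Without erastin 1 rose and 2 fell (median -0.03), where 4.15% of all genes rose and 6.52% fell. Bak1, whose product forms pores in the outer mitochondrial membrane, averaged 42.9 ± 1.27 CPM with erastin and miR-Exo, 78.6 ± 0.745 with erastin and NPPC-Exo, 41.4 ± 1.79 with miR-Exo and 79.6 ± 4.6 with NPPC-Exo (SD, n = 3 each). It fell with miR-Exo under erastin (-0.87 ± 0.06, edgeR adjusted p = 3.2e-07) and without it (-0.94 ± 0.06, edgeR adjusted p = 1.19e-06). Bid, whose BH3-only product is cleaved in death receptor signalling, rose with miR-Exo by 0.68 ± 0.11 under erastin (edgeR adjusted p = 0.000366) and 0.42 ± 0.11 without it (edgeR adjusted p = 0.0275). Pmaip1, the BH3-only gene that encodes NOXA and is, like Bbc3, a p53 target, had 179 ± 0.71 CPM with erastin and miR-Exo and 277 ± 8.47 CPM with erastin and NPPC-Exo (SD, n = 3 each). Its log2 fold change there was -0.63 ± 0.05 (edgeR adjusted p = 1.23e-06), and -0.10 ± 0.05 without erastin (edgeR adjusted p = 0.198). Bok fell by 0.96 with erastin and was at -0.02 ± 0.13 without (edgeR adjusted p = 0.964). In response to erastin 5 of the 13 rose and 3 fell with miR-Exo, where 24.7% of all genes rose and 24.4% fell. With NPPC-Exo 4 rose and 2 fell, where 21.5% of all genes rose and 22.1% fell.

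Over the 12 libraries, the genes nearest in pattern to each of the 6 were sought among 9423 genes with a mean of at least 5 CPM, by Pearson's r of log2 CPM, as a description. The points share their libraries and the 4 group means, so a high r says mainly that the order of the groups was alike. Nearest to Cdkn1b were Sorbs3 (r = 0.967), Txndc11 (0.966) and Chst15 (0.959), and nearest to Cdkn1c were Igfbp5 (0.974), Homez (0.968) and Itgax (0.963). Ets1 lay nearest to Epb41l2 (0.991), Soat1 (0.986) and Prl8a9 (0.984). Angptl2 was nearest to Actg2, the smooth muscle gamma actin (0.997), Mical2 (0.996) and Il1rl1, the receptor for interleukin-33 (0.996). Nearest to Foxo3 were Ctcf (0.949), Msi2 (0.941) and Sf1 (0.938). Kit, with 0 to 55 counts a library, had no close match, with Cdyl at 0.77, Setd4 at 0.769 and Tmem115 at 0.706. By deviations from the group means none of these 18 genes was among the 3 nearest of its partner.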

How the data were processed

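RNA from 12 libraries of rat nucleus pulposus cells was compared in 4 groups of 3 by the titles in the labels. Total RNA was isolated with TRIzol and second strands were marked with dUTP, per the labels. The authors deposited raw counts per gene and FPKM for each library; the submitters' processing notes name StringTie and the mRatBN7.2 build, with no versions; how reads were aligned, counted or filtered is not given in the sources used here. Since the build of the table's coordinates is uncertain, none are printed. Even numbers made up 57.3% of the counts between 1 and 20, more than single reads would give, and halved counts were run as an alternative.

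From the counts, genes passing filterByExpr (15650 of 21071) were scaled by TMM (factors 0.877 to 1.15) and fitted in all 12 libraries with the quasi-likelihood test of edgeR 4.0.16 in R 4.3.3, with Benjamini-Hochberg adjustment over all genes. An SE is the size of the log2 fold change divided by the root of its F statistic. CPM use TMM-scaled totals. FPKM, which the authors deposited, served for levels between genes and in limma 3.58.1; DESeq2 1.42.0 was another alternative. The fit was also run on counts simulated from its own means and dispersions, with a result not given here. Context genes are named where they had up to the 4 smallest adjusted p of their list among those called, with exceptions given in the text. No file gives 3′ untranslated regions, so seed sites were not searched here. The 7 genes and the lists were chosen with earlier results of these data known. Intervals and floors cover counting error or the spread between libraries only. Whether replicate numbers pair libraries was checked from the data, since the labels do not say. Deviations from the group means correlated at 0.422, 0.226 and 0.14 for the 3 same-numbered pairs of miR-Exo and NPPC-Exo without erastin, all over 0.1. But NPPC-Exo replicate 3 correlated more with miR-Exo replicate 2 (0.219) than with miR-Exo replicate 3 (0.14), so this did not settle whether the numbers pair them. The main fit was unpaired, and a replicate block was run as an alternative. Over all 18 same-numbered pairs r ran from -0.241 to 0.422, and in no other comparison did every pair pass 0.1. No libraries agreed within sampling noise.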

Additional observations from a re-analysis of the deposited data

Results flagged for a closer look

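For 27 genes of the set and its context lists, the response to erastin differed between miR-Exo and NPPC-Exo by the test of the interaction in edgeR (adjusted p under 0.05). The set had 6 tested genes and each context list 9 to 25, some of them shared between lists, so no share is given for the 27. By list, 3 were called higher and 4 lower of 18 cell cycle genes, and 2 and 2 of 25 FOXO genes. Of 13 BCL2 family genes it was 1 and 2, of 14 KIT genes 2 and 0, and of 16 ETS genes 0 and 1. Of 9 angiopoietin-like genes and receptors it was 3 and 1, and of 22 further reported targets 2 and 3. Over all 15650 genes tested, 2006 (12.8%) were called in the interaction. Within the set of reported targets, the difference (the log2 response with miR-Exo minus that with NPPC-Exo) was -1.15 for Cdkn1b and -0.99 for Angptl2.

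The differences were higher with miR-Exo for several context genes: Ccne1 and Ccne2 at 0.68 each, Cdk2 at 0.59, Trps1 at 0.31, Kitlg at 0.85, Pdgfra at 0.73, Angpt1 at 1.15, Angptl4 at 0.54, Sod2 at 1.18, Bcl2l11 at 0.58, Itga5 at 0.40 and Bnip3 at 0.38. They were lower for Cdk6 at -0.78, Ccnd1 at -0.45, Ccnd3 at -0.79, Cdkn2a at -2.37, Adipor1 at -0.53, Arf4 at -0.26, Timp3 at -0.82, Bok at -0.94, Pmaip1 at -0.52, Gadd45a at -0.57, Irs2 at -0.44, Itgb1 at -0.29 and Erf at -2.66. The value for Erf, an ETS repressor, rests on groups with a wide spread, at 45.2 ± 17.2 CPM with miR-Exo and 21.6 ± 13.5 CPM with NPPC-Exo (SD, n = 3 each). That for Cdkn2a lay at the threshold (± 0.73 SE, edgeR adjusted p = 0.0497), for a gene with group means of 0.817 to 2.97 CPM.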

How the results depend on the processing

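Over 24 settings beside the one reported, 17 of the 20 calls among 30 values of the 6 genes kept their direction and their side of the threshold in every setting run. The exceptions were Cdkn1c without erastin (1.36, only the groups compared), Foxo3 between the exosomes under erastin and Cdkn1b with erastin under NPPC-Exo. Foxo3 under erastin was -0.28 by library size alone, -0.39 with all genes of at least 1 count, -0.25, -0.28 and -0.25 by limma on FPKM (pseudocount 1, 0.1, and 1 without a filter), and -0.47 to -0.34 with a library left out. Cdkn1b was 0.35 with DESeq2 size factors, with all genes of at least 1 count and with only the groups compared, and 0.25 to 0.55 with a library left out. Foxo3 with erastin under miR-Exo passed the test by library size alone (0.40) and by limma (0.35, 0.41 and 0.35), was 0.30 without replicate 1 of NPPC-Exo and miR-Exo together, a setting chosen after seeing the data, and ranged from -0.04 to 0.30 with a library left out. Between the exosomes without erastin it ran from -0.13 (without miR-Exo replicate 1, and also without both) to 0.21, and its interaction from -0.60, which passed the test without miR-Exo replicate 2, to -0.26. The interaction of Cdkn1c turned to 0.16 by limma with a pseudocount of 1, with and without a filter. Kit turned sign, never passing the test, with a library left out (-0.94 to 0.89 between the exosomes with erastin, 0.22 among them, and -1.22 to 0.47 without; -2.19 to 0.15 for erastin under NPPC-Exo; -0.81 to 1.52 for the interaction, -0.31, -0.24 and -0.04 among them) and without both (0.17, 0.15 and -0.51 for the interaction). The causes were not tested.

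With replicate numbers as a block, no call of the 6 genes changed. Whether the numbers pair libraries was not settled, even for the exosomes without erastin, and over all groups 6 of 12 correlated best with their own number. The calls numbered 1560 against 1669 for the exosomes without erastin and 1928 against 2006 for the interaction, Cdkn1b with erastin under NPPC-Exo was 0.37, and Kit turned to 0.72 without erastin and -1.02 for the interaction.

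With a library left out, 970 to 1854 genes were called without erastin, with 970 without NPPC-Exo replicate 2 and 1042 without miR-Exo replicate 2. For the interaction the range was 1205 to 2419, with 1205, 1218, 1227, 1272 and 1300 at its low end. By library size alone, the median of all genes shifted to 0.33 and 0.30 for erastin with miR-Exo and NPPC-Exo, and to 0.11 and 0.08 for the exosomes with and without erastin. The share of calls that were higher was then 76.4% and 77.8% (against 50.4% and 49.3%), and 68.6% and 68.7% (against 49.7% and 38.9%).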
